A study of Mus musculus with 6 samples.

Results

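Tyrobp encodes DAP12, the adaptor through which several TREM and CD300 receptors of myeloid cells signal, and the receptors, adaptors and kinase of this pathway were described in MHCII hi cells of the gut muscle wall that lacked or carried CX3CR1. The 10 genes were Tyrobp, Hcst and Syk, the TREM receptors Trem2, Trem1 and Treml4, and the CD300 receptors Cd300a, Cd300lb, Cd300ld and Cd300lf. They were found by their symbols among the 26110 genes listed with normalized values, and all 10 were among the 17812 genes tested. The study asked how innate immune signalling in resident cells of the intestinal muscle contributes to postoperative ileus, the loss of gut movement after abdominal surgery. For RNA-seq, MHCII hi cells without CX3CR1 (CX3CR1-) and with it (CX3CR1+) were sorted by flow cytometry from the small bowel muscularis externa, the muscle layers of the gut wall, of untreated female mice, with 3 libraries from each population. All mice had the genotype CX3CR1 GFP/+ on a C57BL/6 background, so that both populations carried a GFP knock-in at 1 copy of Cx3cr1 and the gate read GFP. Tissue of 6 mice was pooled for each group, and the labels do not tie a library to a pool or an animal, so the p-values measure the spread between these libraries, which may be technical. The ages of the mice were not given for these samples in the sources used here.

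DAP12 has no ligand-binding part of its own. Its immunoreceptor tyrosine-based activation motif (ITAM) is phosphorylated by Src family kinases and then recruits Syk, which passes the signal on to adaptors, phospholipase C and phosphatidylinositol 3-kinase. DAP10, the product of Hcst, carries a different motif that binds phosphatidylinositol 3-kinase and Grb2. TREM2 binds lipids and apolipoproteins and is known from tissue macrophages such as microglia, TREM-1 amplifies inflammatory responses of neutrophils and monocytes, and the CD300 family holds both activating receptors and receptors with inhibitory motifs that recruit phosphatases.

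The values are read counts per gene scaled between libraries, called normalized counts here, and their total was between 7572788 and 12447115 per library. The reads behind them were estimated from the smallest step between values at about 11927366, 6517536 and 11331834 in CX3CR1- replicates 1, 2 and 3 and about 17616761, 10014164 and 5346381 in CX3CR1+ replicates 1, 2 and 3. A value worth 3 reads was then between 1.39 and 5.36 normalized counts, and no member lay at or under it in any library. Mitochondrially encoded genes took 51.7 ± 3.76% of the normalized counts in CX3CR1- and 19.6 ± 1.55% in CX3CR1+ libraries (SD, n = 3 each). The part of this difference in the results below was not tested beyond a rescaling without these genes.

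The sort marker and the labelled cell type were examined first. Cx3cr1 was at 23.6 ± 4.80 normalized counts in CX3CR1- and 366 ± 17.5 in CX3CR1+ libraries (SD, n = 3 each), in the order of the gate. The labels name both populations dendritic cells, whereas the study describes them as macrophages. For CX3CR1- cells it cites IBA-1 staining and flow cytometry, in which most carried CD11b and very few CD11c or CD103. It also reports higher dendritic cell transcripts in these cells. The marker levels below are those of RNA, not protein. All 12 macrophage markers tested were lower in CX3CR1-, and their summed level was 8687, 9612 and 9337 normalized counts in the CX3CR1- and 45363, 46972 and 41829 in the CX3CR1+ libraries, with Csf1r, the receptor of macrophage colony-stimulating factor, the most abundant. All 9 markers of conventional dendritic cells were higher in CX3CR1-, with sums of 3818, 4371 and 3977 normalized counts against 318, 299 and 365, led by Clec9a. For the CX3CR1+ cells the label therefore ran against these markers, and the populations are called by their gates below. These are bulk libraries, so that fewer cells of a type and less RNA per cell cannot be told apart.

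Of the 10 members, Trem2, Tyrobp, Cd300a and Cd300ld were lower in CX3CR1- cells, Cd300lf was higher, and Hcst, Syk, Trem1, Treml4 and Cd300lb did not pass the test. A gene was called at an adjusted p of at most 0.05 (limma, Benjamini-Hochberg over all genes tested) with a log2 fold change at or beyond 1 in either direction. Over all genes tested, 8.15% were called lower and 12.2% higher in CX3CR1-. In 8 of the 10 members the CX3CR1- and CX3CR1+ libraries did not overlap, 5 with lower and 3 with higher values in CX3CR1-, while 19.8% of all genes tested lay wholly lower and 20.3% wholly higher. The median log2 fold change of the members was -0.22, and that of all genes tested was -0.003. The filter on low values kept 8 members through both populations, whereas Trem1 and Treml4 had a mean of 10 only in CX3CR1- and are not counted as support below. Genes of the lists below that reached this mean in only 1 population had to differ in the same way, so the list counts are descriptions.

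**Figure D1:**
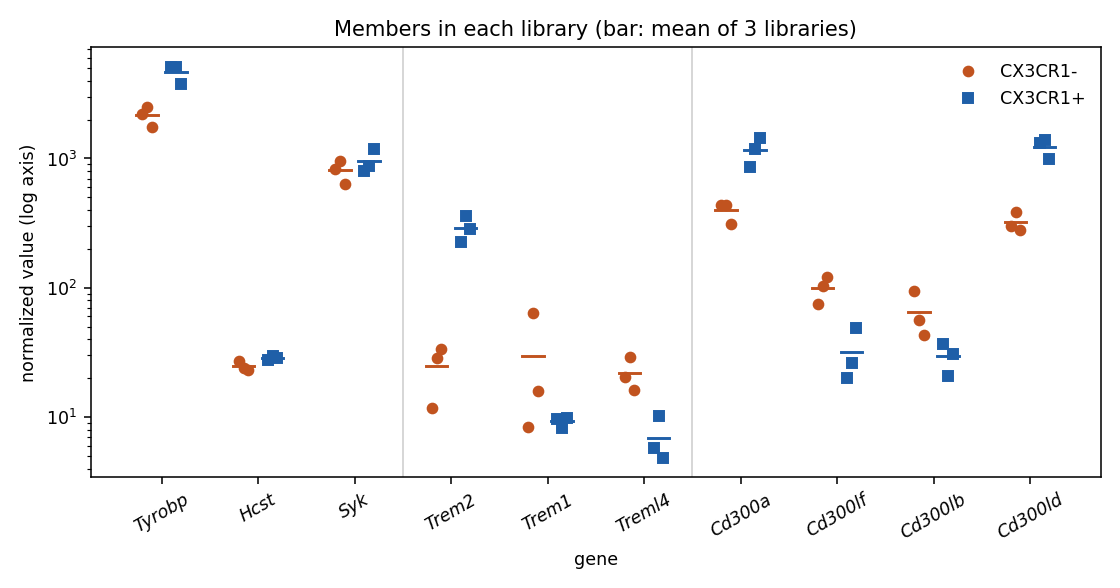
Normalized counts of the 10 members in each library on a log axis, grouped into adaptors with the kinase, TREM and CD300 receptors, with orange points for the 3 CX3CR1- and blue points for the 3 CX3CR1+ libraries, and bars for the means. The populations separate most for Trem2 (24.6 against 290.1), and only Syk and Trem1 overlap.

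Tyrobp was lower in CX3CR1-, whereas Hcst and Syk did not pass the test. Tyrobp stood at 2220, 2516 and 1741 normalized counts in CX3CR1- replicates 1, 2 and 3 and at 5086, 5108 and 3782 in CX3CR1+ replicates 1, 2 and 3. Every CX3CR1- library lay below every CX3CR1+ library. The means were 2159 ± 391 and 4659 ± 759 (SD, n = 3 each), which is 2.16-fold lower in CX3CR1-, with a log2 fold change of -1.11 (SE 0.18, 95% CI -1.52 to -0.70, adjusted p = 0.00162, limma). This change lay close to the fold threshold: without CX3CR1- replicate 3 it was -0.97, which no longer counts as a call although its adjusted p stayed under 0.05, and the same held with quantile scaling (-0.65) and equal totals (-0.94). The other adaptor, Hcst, lies next to Tyrobp on mouse chromosome 7 and is read from the opposite strand: in GRCm38 Tyrobp spans chr7:30413760-30417585 and Hcst chr7:30417712-30419854, with a gap of 127 bp between them. Hcst had 27.3, 24.0 and 23.2 normalized counts in CX3CR1- and 27.8, 29.4 and 28.8 in CX3CR1+ libraries. The groups did not overlap, but the difference was small, at a log2 fold change of -0.20 (SE 0.37, 95% CI -1.03 to 0.62, adjusted p = 0.738, limma). Within a library, Tyrobp stood above Hcst by 6.37 ± 0.25 on the log2 scale in CX3CR1- and by 7.28 ± 0.26 in CX3CR1+ (SD, n = 3 each), a difference of -0.91 with no overlap between the groups. An exact two-sided permutation test gave p = 0.1 for this balance, the smallest value that 3 against 3 libraries allow.

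Syk, the kinase that docks on phosphorylated ITAMs, had 825, 963 and 639 normalized counts in CX3CR1- and 797, 879 and 1187 in CX3CR1+ libraries. The groups overlapped. The log2 fold change was -0.24 (SE 0.22, 95% CI -0.72 to 0.25, adjusted p = 0.479, limma), an interval that holds both no change and a drop of 0.72 on the log2 scale, and the value turned to 0.10 with quantile scaling. Relative to Tyrobp in the same library, Syk was at -1.42 ± 0.03 in CX3CR1- and -2.29 ± 0.54 in CX3CR1+ on the log2 scale (SD, n = 3 each; difference 0.88, exact two-sided permutation p = 0.1). Syk lies on chromosome 13 (chr13:52583173-52648792, GRCm38).

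Trem2 changed most among the members. It had 11.8, 28.4 and 33.7 normalized counts in CX3CR1- replicates 1, 2 and 3, against 228, 358 and 285 in CX3CR1+ replicates 1, 2 and 3. The lowest CX3CR1+ library thus lay far above the highest CX3CR1- library. The means of 24.6 ± 11.5 and 290.1 ± 65.1 (SD, n = 3 each) differed 11.8-fold, with a log2 fold change of -3.60 (SE 0.40, 95% CI -4.49 to -2.72, adjusted p = 1.30e-04, limma). Trem2 was also lower relative to its own adaptor: the log2 level of Trem2 minus that of Tyrobp was -6.50 ± 0.90 in CX3CR1- and -4.01 ± 0.40 in CX3CR1+, a difference of -2.49 (n = 3 each, exact two-sided permutation p = 0.1).

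Trem1 and Treml4, which share the chromosome 17 cluster with Trem2, did not pass the test. Trem1 had 8.35, 64.4 and 15.96 normalized counts in CX3CR1- and 9.71, 8.20 and 9.92 in CX3CR1+ libraries. CX3CR1- replicate 2 alone stood apart, and the CX3CR1- library at 8.35 lay within the CX3CR1+ range. The log2 fold change was 1.09 (SE 0.71, adjusted p = 0.311, limma), and 0.30 without CX3CR1- replicate 2 (adjusted p = 0.756). That library also had the highest sum of the 7 monocyte markers listed, with 3591 normalized counts against 2617 and 1756 in the other CX3CR1- libraries and 750.2, 762 and 835 in the CX3CR1+ libraries. Ccr2 was the most abundant of them, and their part in the Trem1 value was not tested. Of the monocyte list, 4 of 5 genes tested were higher in CX3CR1- and none was lower. Treml4, whose product binds dead cells and pairs with DAP12, had 20.3, 28.9 and 16.3 normalized counts in CX3CR1- and 5.81, 10.1 and 4.84 in CX3CR1+ libraries. The groups did not overlap, but the log2 fold change of 1.55 (SE 0.56, adjusted p = 0.0716, limma) missed the threshold.

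The CD300 members split within the family, with Cd300a and Cd300ld lower and Cd300lf higher in CX3CR1-. Cd300a encodes an inhibitory receptor for the phospholipids of dying cells. It had 437, 439 and 314 normalized counts in CX3CR1- and 866, 1174 and 1446 in CX3CR1+ libraries, with a wide gap between the groups. The means were 397 ± 71.9 and 1162 ± 290.3 (SD, n = 3 each), 2.93-fold lower in CX3CR1-, with a log2 fold change of -1.53 (SE 0.23, adjusted p = 9.06e-04, limma). Cd300ld, an activating receptor that signals through the Fc receptor gamma chain, had 303, 386 and 281 normalized counts in CX3CR1- and 1310, 1390 and 994 in CX3CR1+ libraries. Its means of 323 ± 55.5 and 1231 ± 209 differed 3.81-fold, again without overlap, with a log2 fold change of -1.92 (SE 0.21, adjusted p = 1.04e-04, limma).

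Cd300lf, a receptor with inhibitory motifs that binds ceramide and other lipids, went the opposite way. It had 74.5, 103 and 121 normalized counts in CX3CR1- and 19.9, 26.0 and 49.0 in CX3CR1+ libraries. The lowest CX3CR1- library was above the highest CX3CR1+ library. The means of 99.7 ± 23.5 and 31.6 ± 15.3 (SD, n = 3 each) differed 3.15-fold, with a log2 fold change of 1.70 (SE 0.39, 95% CI 0.82 to 2.57, adjusted p = 0.0104, limma). Cd300lb, an activating receptor that uses DAP12, had 94.3, 56.1 and 43.0 against 37.0, 20.9 and 30.5 normalized counts. These groups did not overlap, but its log2 fold change of 1.06 (SE 0.40, adjusted p = 0.0836, limma) did not pass the test.

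**Figure D2:**
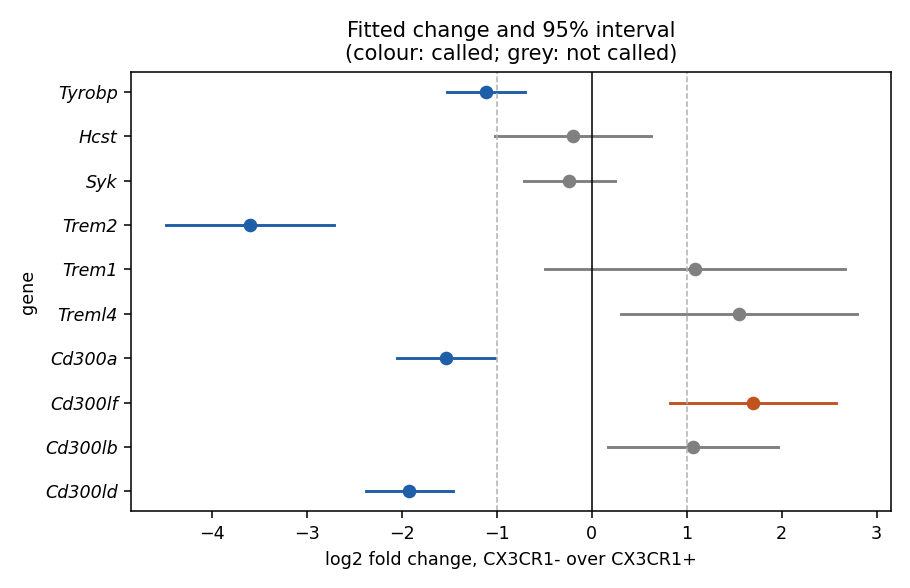
Log2 fold change of each member, CX3CR1- over CX3CR1+, from limma on log2(value + 1), with 95% confidence intervals as bars and dashed lines at the fold threshold of 1 in either direction. The intervals of Trem2, Cd300ld, Cd300a and Tyrobp lie below 0. Those of Cd300lf (0.82 to 2.57), Treml4 (0.30 to 2.79) and Cd300lb (0.17 to 1.96) lie above it, and of these only Cd300lf was called.

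Within the same libraries, 2 pairs of an activating and an inhibitory CD300 receptor stood in different proportions in the 2 populations. The log2 level of Cd300ld minus that of Cd300lf was 1.70 ± 0.43 in CX3CR1- and 5.32 ± 0.88 in CX3CR1+ (SD, n = 3 each), a difference of -3.62. For the activating Cd300lb against the inhibitory Cd300a it was -2.66 ± 0.40 and -5.26 ± 0.66, a difference of 2.60. Neither balance overlapped between the groups (exact two-sided permutation p = 0.1 each). The 2 balances thus moved in opposite directions. Compared with CX3CR1+, the gene called lower in CX3CR1- was the activating one in the first pair and the inhibitory one in the second. The shifts depend on this pairing, since Cd300ld and Cd300a (log2 fold changes -1.92 and -1.53) shared a sign, as did Cd300lb and Cd300lf (1.06 and 1.70).

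**Figure D3:**
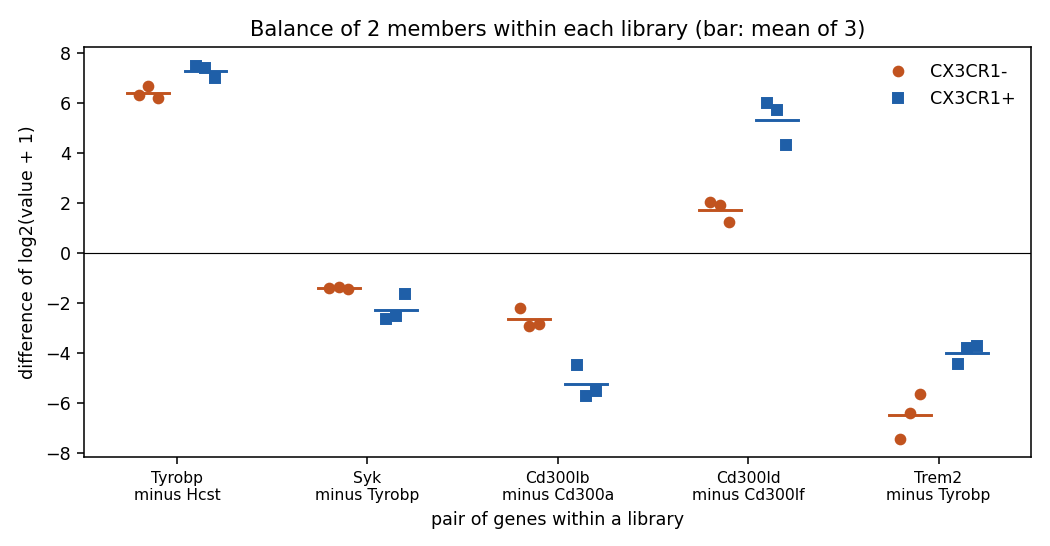
Differences between the log2 levels of 2 members within each library, with orange points for the 3 CX3CR1- and blue points for the 3 CX3CR1+ libraries. The Cd300ld against Cd300lf balance averages 1.70 in CX3CR1- and 5.32 in CX3CR1+, and none of the 5 balances overlaps between the populations.

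To compare levels between genes, the normalized counts were divided by the length of the longest annotated transcript. In CX3CR1+ cells Tyrobp stood first at 7803 ± 1272 normalized counts per kb, followed by Cd300ld at 465 ± 79.0 and Cd300a at 250.2 ± 62.5 (SD, n = 3 each). Cd300a overlapped Syk, the next at 178 ± 38.4, and Hcst at 64.9 overlapped Trem2 at 60.6. Cd300lb, Cd300lf, Treml4 and Trem1 followed between 10.2 and 3.1 normalized counts per kb, each overlapping its neighbour. In CX3CR1- cells Tyrobp again stood first at 3616 ± 655 normalized counts per kb, then Syk at 151 ± 30.3, which overlapped Cd300ld at 122 ± 21.0, then Cd300a at 85.4 and Hcst at 56.2. The other members, from Cd300lf at 25.4 down to Trem2 at 5.2, overlapped their neighbours. On this scale Trem2 was sixth of the members in CX3CR1+ and last in CX3CR1-, whereas with the mean length of its transcripts it stood at 156 and 13.2 normalized counts per kb, ranks 5 and 9.

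The members were also set against the mean log2 level of the 12 macrophage markers in the same library, a scale chosen after the values had been seen. This mean was 8.82 ± 0.07 in CX3CR1- and 11.3 ± 0.09 in CX3CR1+ (SD, n = 3 each), a difference of -2.48. Subtracting it shifts every gene by the same amount, so that a gene without change would lie as far above 0 as the markers lay below it, and the sign on this scale says only whether a gene was lower by more or by less than the markers. Trem2 was lower by more than the marker mean, at -1.12 on the log2 scale, with a range of -1.36 to -0.71 when a library was left out. Tyrobp (1.37), Cd300a (0.95) and Cd300ld (0.56), the other members called lower, were lower by less than the marker mean. The markers themselves ran from -1.45 (Cd68) to -3.92 (Cx3cr1, the gene of the gate), with Adgre1 (-3.14) the next lowest. The log2 fold changes of Cd300a and Cd300ld lay within this range and that of Tyrobp outside it. Trem2 lay within it only through Cx3cr1, and below every other marker.

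The CD300 members lie on chromosome 11 and the TREM members on chromosome 17, each in a cluster with further genes of the family. In GRCm38, Cd300a (chr11:114890041-114904654) opens the chromosome 11 cluster, followed by Cd300lb (chr11:114922781-114934386), Cd300ld (chr11:114982274-114989922) and, at the far end, Cd300lf (chr11:115116214-115133992), which lies inside Rab37 on its other strand and, with a kit that did not mark strand, could not be told apart from it where their exons overlap. Trem1 (chr17:48232768-48246924), Treml4 (chr17:48264295-48275360) and Trem2 (chr17:48346401-48354147) follow each other on chromosome 17. From Cd300ld to Cd300ld3, 6 neighbours in a row had negative log2 fold changes, of which that of Cd300ld2 did not pass the test. They include Cd300ld copies with much shared sequence, so they are not 6 separate observations. Elsewhere in the cluster Cd300a was called lower, Cd300c and Cd300lf were called higher, Cd300lb was not called, and Cd300e was not analysed here. Of the other TREM and CD300 genes, 8 were tested, 4 were lower and 3 higher in CX3CR1- and 1 did not pass, with a median log2 fold change of -2.37 beside -0.003 for all genes tested. The sign of this median rests on counting Cd300ld2, Cd300ld3, Cd300ld4 and Cd300ld5 separately, although they share much of their sequence. The rest of the list was Cd300c2 (-3.18), Cd300c (3.82), Cd300lg (4.47) and Treml2 (1.92).

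Cd300c2, another activating receptor of the family, was at 68.5, 119.5 and 112 normalized counts in CX3CR1- and 814, 918 and 934 in CX3CR1+ libraries, a change of -3.18 on the log2 scale (adjusted p = 1.59e-05, limma). Cd300ld3 was at 95.6 ± 18.1 against 720 ± 131 normalized counts (SD, n = 3 each; log2 fold change -2.90), and Cd300ld4 (-4.85) and Cd300ld5 (-1.91) were also lower. The higher genes were Cd300lg, a receptor known from endothelium, at 145 ± 27.9 against 5.80 ± 2.43 normalized counts (log2 fold change 4.47), Treml2 at 40.8 ± 4.41 against 10.6 ± 4.58 (1.92), and Cd300c. The last lay at or under 3 reads in every CX3CR1+ library and was at least 10.3-fold higher in CX3CR1-, against a floor of 3 reads. This bound uses the mean of uneven CX3CR1- libraries (9.38, 52.3 and 21.3 normalized counts in replicates 1, 2 and 3) and would be lower without replicate 2. Cd300ld2 did not pass (log2 fold change -2.82, adjusted p = 0.0980, limma). Cd300lg and Cd300c passed the filter on low values only through CX3CR1-, and Cd300ld4 only through CX3CR1+. The Cd300ld copies share much of their sequence: 45.0% of the 31-base words of Cd300ld2, 84.1% of those of Cd300ld3, 96.2% of those of Cd300ld4 and 100% of those of Cd300ld5 occur in another gene, so their separate values are uncertain. For Cd300c2 this share was 12.3%. For the members this share was 8.20% in Cd300a, 6.56% in Cd300ld and 4.73% in Cd300lf and below 1% in the others.

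**Figure D4:**
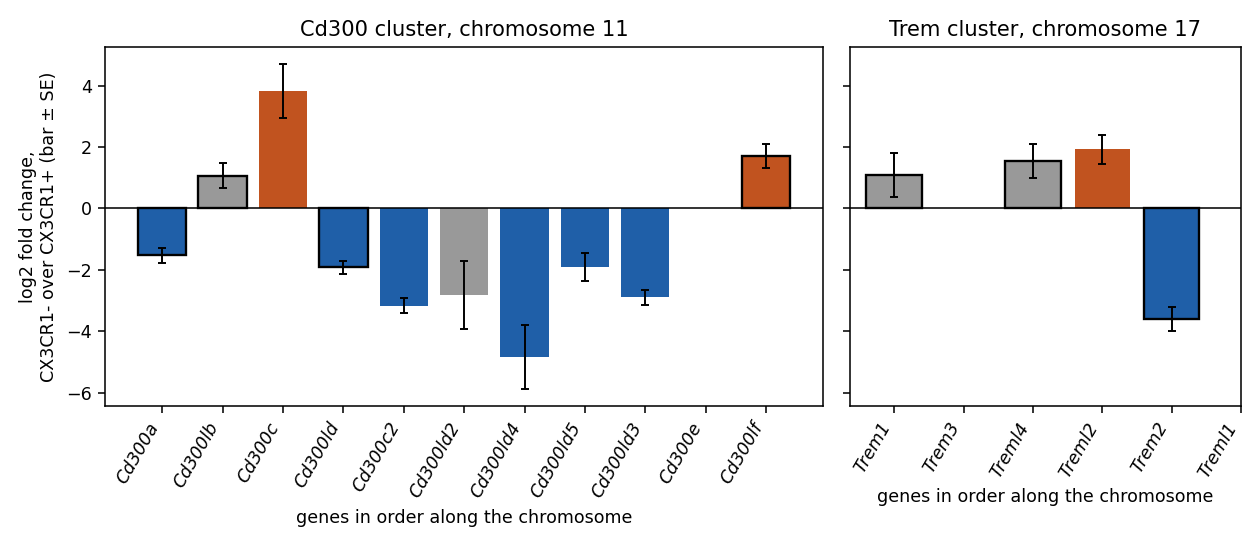
Log2 fold change, CX3CR1- over CX3CR1+, of the CD300 genes of chromosome 11 and the TREM genes of chromosome 17 in their order along the chromosome, with members edged in black, orange for called higher, blue for called lower and grey for not called and error bars for the SE. A gene named without a bar was not analysed here, and both clusters hold bars in both directions. Cd300lg (log2 fold change 4.47), which lies on chromosome 11 away from the cluster, is not drawn.

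The promoter windows of the members, from 250 bases before to 50 bases after the RefSeq start (GRCm38.p6), were searched for GAGGAA, the core word bound by PU.1, on both strands (TTCCTC on the other). The word occurs in 28.3% of the 32851 windows of this kind and in 7 of the 10 windows of members. These belong to 7 of the 9 members that had a window. A match is a description of letters and does not show binding. The stretches of the 4 CD300 and TREM receptors that passed the test are shown 5′ to 3′ on the strand of the gene, with the word in capitals, because 3 of them hold it within 50 bases before the start.
Trem2, chr17:48346311-48346400, + strand: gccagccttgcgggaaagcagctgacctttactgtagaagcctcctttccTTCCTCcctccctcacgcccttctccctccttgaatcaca
Cd300a, chr11:114889951-114890040, + strand: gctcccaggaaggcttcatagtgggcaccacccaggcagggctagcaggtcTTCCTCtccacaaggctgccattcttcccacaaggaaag
Cd300lf, chr11:115133993-115134082, - strand: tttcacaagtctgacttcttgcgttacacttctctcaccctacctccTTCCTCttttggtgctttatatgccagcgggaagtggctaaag
Cd300ld, chr11:114989977-114990066, - strand: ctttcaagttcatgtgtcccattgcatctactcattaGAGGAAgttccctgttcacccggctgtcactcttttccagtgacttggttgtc

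In Trem2 and Cd300a, which were lower in CX3CR1-, the word began 40 and 39 bases before the start, and in Cd300lf, which was higher, 43 bases before it, with a second match at base 1 of the gene. In Cd300ld it began 143 bases before the start. Trem1, Treml4 and Syk held it too, whereas the windows of Hcst and Cd300lb did not. Spi1, which encodes PU.1 and was added after its values had been seen, was at 526 ± 52.1 normalized counts in CX3CR1- and 1243 ± 129 in CX3CR1+ (SD, n = 3 each), which is -1.24 on the log2 scale (adjusted p = 5.21e-04, limma).

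Of the other receptors that use DAP12 or DAP10, 11 were tested, 3 were lower, 2 higher and 6 not called, with a median log2 fold change of -0.18. Clec5a, a lectin receptor of myeloid cells that uses DAP12, had 1.22, 6.25 and 32.4 normalized counts in CX3CR1- and 150.0, 216 and 159 in CX3CR1+ libraries (log2 fold change -4.42, adjusted p = 0.00255, limma). Siglech (-2.23) and Sirpb1a (-2.14) were also lower. Klrk1, which encodes NKG2D, a receptor that uses DAP10, was at 95.5, 55.9 and 80.5 against 21.9, 12.42 and 22.5 normalized counts, without overlap (log2 fold change 1.98, adjusted p = 0.00433, limma). Klrd1, a partner of NKG2 receptors, was also higher (2.37). Receptors of DAP12 and of DAP10 were not separated in this list. Klrd1 passed the filter on low values only through CX3CR1-, and Sirpb1a only through CX3CR1+.

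Downstream of ITAMs, 25 genes were tested, of which 10 were lower, 3 higher and 12 not called, with a median log2 fold change of -0.91. Fcer1g, the Fc receptor gamma chain that serves Cd300ld as adaptor, had 1090, 1507 and 1121 normalized counts in CX3CR1- and 3812, 3761 and 3482 in CX3CR1+ libraries, with no overlap (log2 fold change -1.59, adjusted p = 8.82e-05, limma). The largest drops were those of Pik3ap1, an adaptor to phosphatidylinositol 3-kinase (-2.25), Card9, which links Syk to NF-kappaB (-1.65), and Fcer1g. Fgr, a kinase of the Src family, was higher, at 157 ± 41.8 against 14.8 ± 12.3 normalized counts (SD, n = 3 each; log2 fold change 3.61), as was Fyn, at 249 ± 87.9 against 41.9 ± 17.6 (2.59). Malt1, the partner of Card9 and Bcl10, was higher (1.37).

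Among inhibitory receptors and phosphatases, 17 genes were tested, 7 were lower, 1 higher and 9 not called, with a median log2 fold change of -0.99. Cd33, a sialic acid receptor with inhibitory motifs, had 310.4, 234 and 276 normalized counts in CX3CR1- and 5139, 5091 and 5065 in CX3CR1+ libraries, a wide gap (log2 fold change -4.23, adjusted p = 1.36e-06, limma). Lair1 (-3.56) and Siglece (-2.99) followed, and Inpp5d, the lipid phosphatase SHIP-1, was lower as well (-1.23). Ptpn6, the phosphatase SHP-1 that inhibitory motifs recruit, was at 284 ± 149 against 300 ± 44.8 normalized counts and was not called (log2 fold change -0.25, adjusted p = 0.705, limma). The gene called higher was Dok2, an adaptor that dampens kinase signalling (2.44).

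Of 15 TREM ligands and shedding genes tested, 2 were lower, 5 higher and 8 not called, with a median log2 fold change of -0.23. Apoe, an apolipoprotein that TREM2 binds, had 3004, 2747 and 4629 normalized counts in CX3CR1- and 30823, 32197 and 27005 in CX3CR1+ libraries, so that it lay far lower beside Trem2 (log2 fold change -3.15, adjusted p = 4.84e-06, limma). Adam17, a protease that sheds TREM2, was also lower (-1.64). The genes called higher were Apoa1, Apoa4, Apob, Clu and Pglyrp1, whose product is a ligand of TREM-1, and all 5 passed the filter on low values only through CX3CR1-. Apoa4 was at least 206-fold and Apob at least 346-fold higher in CX3CR1- against a floor of 3 reads, and Pglyrp1 was at 36.3 ± 17.7 against 3.83 ± 0.781 normalized counts (SD, n = 3 each). Apoa1, Apoa4 and Apob are genes of absorptive intestinal epithelium. All 8 epithelial markers tested were higher in CX3CR1- with them, summing to 26984, 25187 and 15844 normalized counts against 54.7, 28.7 and 26.0, led in CX3CR1- by Fabp2, and Epcam was at or under 3 reads in every CX3CR1+ library. The part of epithelial RNA in the apolipoprotein values was not tested.

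Genes that depend on TREM2 in other phagocytes did not move as 1 group: of 18 tested, 5 were lower, 3 higher and 10 not called, with a median log2 fold change of -0.50. Ch25h, a cholesterol hydroxylase (-4.38), the cholesterol exporter Abca1 (-2.46), the protease Ctsb (-2.24), Cd63 and Axl were lower. Of these, Ch25h passed the filter on low values only through CX3CR1+. Lpl, the lipase that releases fatty acids from lipoproteins, was higher at 1637, 2537 and 995 against 186, 173 and 204 normalized counts (log2 fold change 3.10, adjusted p = 5.46e-05, limma). Itgax (2.06), which encodes the integrin CD11c, and Lgals3 (1.94) were higher too. In the study's flow cytometry very few CX3CR1- cells carried CD11c protein.

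**Figure D5:**
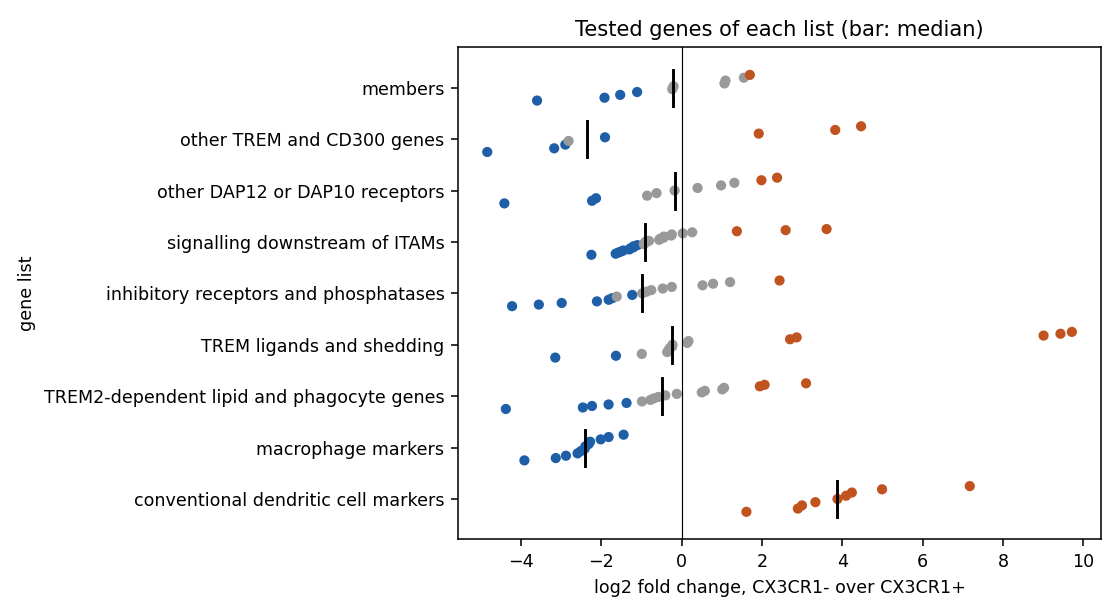
Log2 fold changes, CX3CR1- over CX3CR1+, of the genes tested in each list of the pathway, of the members and of the macrophage and dendritic cell markers, with 1 point per gene, orange for called higher, blue for called lower and grey for not called, and a bar at the list's median. The medians of the pathway lists run from -2.37 for the other TREM and CD300 genes to -0.18 for the other DAP12 or DAP10 receptors. The median of -2.37 counts Cd300ld copies that share much of their sequence as separate genes, and its sign and place rest on them. The 5 genes called higher among the TREM ligands passed the filter on low values only through CX3CR1-.

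Markers of further cell types moved with the gate as well. Of 3 neutrophil markers tested, Csf3r was lower in CX3CR1- and the others were not called, and the sums were 234, 245 and 372 against 949, 1343 and 1001 normalized counts. S100a8, S100a9 and Ly6g were not analysed here. Among B cell markers 5 of 6 were higher, with sums of 846, 1098 and 787 against 79.8, 94.4 and 92.6, led by Pax5. All 6 fibroblast markers were higher, summing to 7226, 4117 and 12168 against 316, 244 and 180 normalized counts, led by Dcn.
Of 3 NK cell markers 1 was higher (Gzma, list sums of 127 ± 131 against 18.2 ± 8.45), of 3 T cell markers 1 (Cd2, list sums of 390.4 ± 35.1 against 203 ± 48.7), and of 2 eosinophil markers both (99.3 ± 10.1 against 14.96 ± 1.49). The mast cell marker tested, Kit, was higher (list sums of 377 ± 194 against 37.6 ± 9.85). Of 5 plasmacytoid dendritic cell markers, 1 was lower, 2 were higher and 2 were not called (1465 ± 232 against 2180 ± 14.0, mostly Tcf4). The part of these cells in the members' values was not tested.

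The genes with the most similar profile over the 6 libraries were sought for 3 members by the Euclidean distance between centred log2 values. Nearest to Tyrobp were Tfe3 (0.23), 9330020H09Rik (0.23) and Slamf9 (0.25). Nearest to Trem2 were the complement receptor gene C5ar1 (0.43), Ms4a14 (0.62) and Tlr2 (0.63). C5ar1 was at 498 ± 177 normalized counts in CX3CR1- and 5787 ± 619 in CX3CR1+ libraries (SD, n = 3 each). Its log2 fold change of -3.60 is like that of Trem2 because it was picked for its profile in these same libraries. Nearest to Trem1 were Rhbdd2 (0.55), Il2ra (0.60) and Gm45706 (0.62).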

How the data were processed

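Per the study's methods, total RNA of sorted cells was made into TruSeq libraries and read as 75 bp single reads, and transcripts of GENCODE M16 (mm10) were quantified by the authors with kallisto (version not given in the sources used here) and summed per gene for DESeq2. The authors deposited 1 table of normalized counts per gene for the 6 libraries, a signal in which gene counts were divided by a factor per library. Between 42.6% and 44.7% of the deposited values were whole multiples of the smallest step within 0.01 steps, so reads were not recovered and no count model was used. Genes whose mean value across the 6 libraries reached 10 were tested on log2(value + 1) with limma 3.58.1 (R 4.3.3, intensity trend), CX3CR1- against CX3CR1+, with Benjamini-Hochberg adjustment over all 17812 genes, and the script was tested on simulated data. Fold changes on this scale understate those of low genes. Balances were differences of log2(value + 1) within a library, tested with an exact permutation test over libraries. Gene positions, transcript lengths and 31-base words were taken from GENCODE M21 (GRCm38) and promoter sequences from RefSeq (GRCm38.p6). Intervals cover the spread between libraries, and floors of 3 reads cover counting error.

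The 10 members and the 18 gene lists beside them, 12 of them of cell type markers, were chosen with earlier results of these data known. All members were named, and any gene of a list could be, first the 3 largest and 3 smallest called changes and those a marker statement needed, with the 3 nearest profiles of Tyrobp, Trem2 and Trem1. Alternatives were pseudocounts of 0.5 and 10, no filter or a minimum mean of 50, median-of-ratios, quantile and equal-total scaling, no intensity trend, library weights, a replicate block, another transcript length and leaving out each library. Figures were drawn with matplotlib 3.10.9.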

Additional observations from a re-analysis of the deposited data

How the results depend on the processing

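Trem2, Cd300a, Cd300ld and Cd300lf kept direction and call in all 16 alternatives that tested them, with log2 fold changes between -3.88 and -3.15, -1.73 and -1.30, -2.07 and -1.72, and 1.43 and 2.05. Tyrobp fell under the fold threshold with quantile scaling (-0.65), equal totals without mitochondrial genes (-0.94) and without CX3CR1- replicate 3 (-0.97), which left 3 members lower instead of 4. With equal totals (1.70, adjusted p = 0.0470, limma) and without the intensity trend (1.55, adjusted p = 0.0250) Treml4 passed, giving 2 members higher instead of 1. Syk turned to 0.10 with quantile scaling (adjusted p = 0.783). Trem1 ran from 0.30 to 1.70. Genes called numbered 3628 and 2413 with a mean of at least 50, where 1232 instead of 2177 were higher and 6 members were tested. The split of 2177 higher and 1451 lower became 1716 and 1674 with quantile scaling, where the median of all genes was -0.15, and 2521 and 1113 with equal totals, where it was 0.17. Leaving out a library gave 2771 to 3869 genes called, 1011 to 1606 lower and 1724 to 2263 higher, and 3 to 4 members lower. The labels share no replicate numbers. A replicate block of adjacent library numbers gave 3610 genes called and changed no member's call, and deviations of these pairs correlated at 0.104, 0.038 and 0.014, which gave no evidence of pairing and does not show that the libraries were made apart. With mean instead of longest transcript lengths, 14 levels per kb moved by more than their spread, that of Trem2 in CX3CR1- from 5.15 to 13.2. Median-of-ratios scaling divided every library by about the same factor (1.014), so it could hardly change a call and is no separate check. The pseudocounts, no filter and library weights changed no call of a member. The 5 balances described stayed within their spread in all 8 alternatives each. The smallest library, CX3CR1+ replicate 3, had about 5346381 reads, so Treml4 at 4.84 normalized counts there rests on few reads.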
